A study of Mus musculus with 30 samples.

Results

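On this whole-transcriptome mouse array, 33206 of 65956 transcript clusters had no gene symbol in the platform's probe-to-gene table, and 11672 of them had a mean log2 signal of at least 5 over the 30 arrays. These 11672 unlisted clusters are described here in single blastocysts. They were chosen by the absence of a symbol and by their measured mean, so the mean level itself is a description and not a finding. The mean was taken over all 3 groups, so a cluster high in 1 group alone could pass. The lowest member had a mean of 5.00 and the next cluster below the level had 4.999. Among the members, 5312 (45.5%) had means from 5 to 6 and 259 (2.22%) had means of at least 16. Different clusters carry different probes, so levels of different clusters are not measures of relative abundance.

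A transcript cluster is a set of probes that the array's maker assigned to 1 transcribed stretch of the genome. Such stretches without a gene name can be noncoding transcripts, predicted genes, duplicated gene copies or remnants of mobile elements, and probes of repeated copies can read the same RNA. The preimplantation mouse embryo is known to transcribe many noncoding RNAs and mobile elements. None of the 11672 members is given a gene name here.

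Each array held 1 blastocyst at 4 dpc after 96 h of culture, from a B6C3F1 x CD1 zygote fertilized in vivo. The 10 GM501 twins and the 10 SAGE twins were monozygotic co-twins: a 2-cell embryo was bisected, and 1 blastomere grew in GM501 medium while the other grew in SAGE 1-Step medium. The 10 controls were undivided embryos grown singly in KSOM(aa) medium. Twins held approximately 40 to 50 cells and controls approximately 80, so a difference between twins and controls can lie with medium, bisection or cell number, which cannot be told apart, and neither can fewer cells of a type and less RNA per cell. A pair number names 1 embryo. The number of a control names no pair.

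The clusters are named by a chromosome code and a running number. Of 29292 listed clusters that matched a single RefSeq gene, 99.7% carried the code of the gene's chromosome, and 98.8% of 29169 steps from one number to the next went up in position. The neighbouring listed genes therefore bracket a member's position, in the mm10 mouse genome build that the submitters used (RefSeq GRCm38.p6 for the genes' coordinates). A neighbour is only a landmark. The members lay on every chromosome, from 300 on chromosome 19 to 999 on chromosome 2. A further 564 lay on X, 53 on Y and 19 on the mitochondrial genome, and 79 were unplaced.

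Among the named members, the largest differences between twins and controls lay in a repeated stretch of chromosome 10. Its ends carry the gene of the cytokine interleukin 22, Il22, and its duplicate, Iltifb. Il22 spans chr10:118204584-118210047 and Iltifb chr10:118289629-118295038, 79582 bases apart. The start regions of both genes are shown because the unlisted clusters next to them were repeated in the same way. A stretch of 102 bases around an annotated transcript start of each gene, chr10:118204885-118204986 on the plus strand for Il22 and chr10:118294994-118295095 on the minus strand for Iltifb, was equal at 98 bases. The span of Il22 given above begins further upstream, so its stretch lies inside that span. Capitals mark the 4 bases that differ, 5′ to 3′ on each gene's own strand (RefSeq, GRCm38.p6).
Il22: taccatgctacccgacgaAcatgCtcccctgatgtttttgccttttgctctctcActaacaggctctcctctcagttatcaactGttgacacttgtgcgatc
Iltifb: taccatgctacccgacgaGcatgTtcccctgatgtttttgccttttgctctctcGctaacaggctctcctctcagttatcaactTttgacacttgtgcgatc
The stretches ran in opposite directions along the chromosome, as did the order of the unlisted clusters beside them. The members' own sequences were not used here.

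The arrays differed in overall level. The median over all 65956 clusters ran from 4.59 to 5.28 in the GM501 twins, from 4.57 to 5.22 in the SAGE twins and from 4.59 to 4.69 in the controls. The median over the members ran from 5.96 to 6.59 (median 6.30), from 6.06 to 6.57 (median 6.32) and from 5.93 to 6.15 (median 6.02). The members' median thus reached higher in most twins than in the controls, with overlap. Taken relative to the median of all clusters of the same array, it was 1.40 ± 0.11 for GM501, 1.42 ± 0.09 for SAGE and 1.40 ± 0.08 for the controls (SD, n = 10 each), which differed by less than the spread between arrays. The corresponding value of listed clusters with a mean of at least 5 was 2.44 ± 0.34, 2.42 ± 0.30 and 2.72 ± 0.06. Pairs 1 to 6 and pairs 7 to 10 stood apart in many clusters, and no label names a batch. In pair 8 the SAGE twin's array median was 5.12, above those of the other twins of pairs 7 to 10. Whether the sets differ in handling was not tested. Differences were also taken after centring every array on the median of all clusters, and each value below is said to be deposited or centred where that matters to a call. Centring took the median difference of all clusters between pair means and controls from 0.23 to -0.02.

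**Figure D1:**
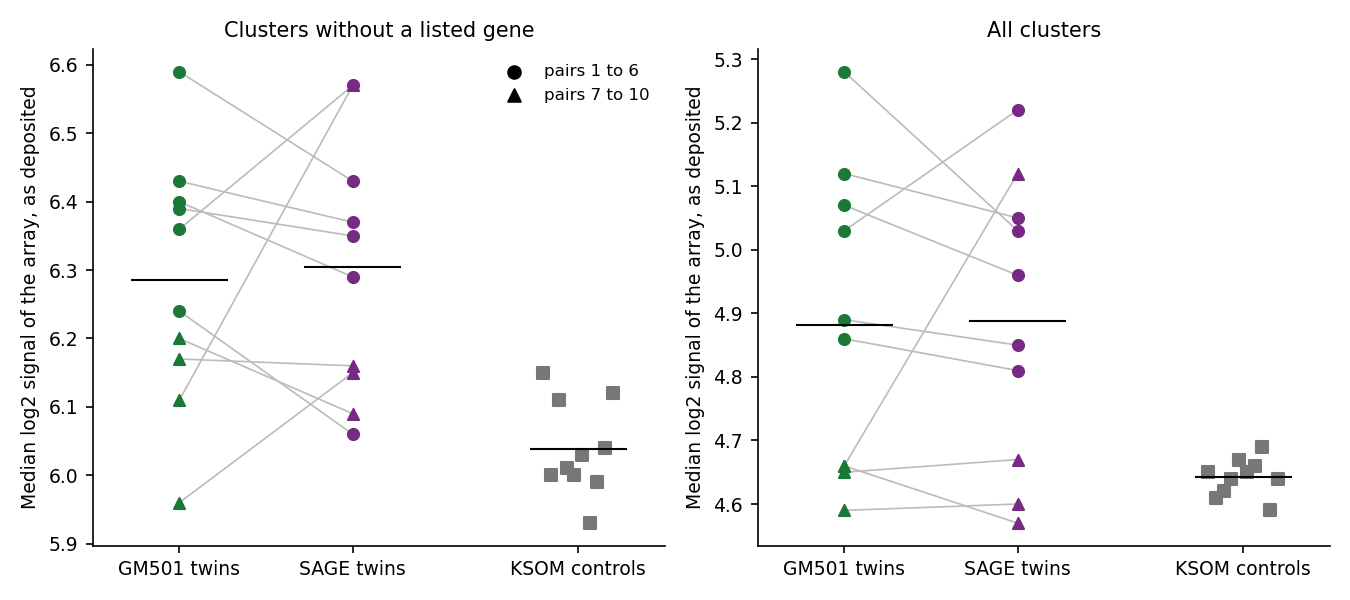
Median log2 signal of each array, as deposited, over the 11672 members (left) and over all clusters (right), with 1 point per array, grey lines joining co-twins and a black bar at each group's mean. The controls lie within 5.93 to 6.15 for the members, and the twins reach 6.59.

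As a check of the tissue, 10 of 12 fixed blastocyst markers had a cluster of their own, and after centring 7 of them fell in the pair means of twins against controls, among them Nanog, a factor of the pluripotent inner cells, by 1.53, Krt8, a keratin of the trophectoderm, by 1.24 and Cdx2, a trophectoderm factor, by 0.83 (log2). Of 10 markers of oviduct, cumulus and blood cells, 6 had a cluster, their means ran from 3.6 to 6.0, and 0 passed the test after centring. As deposited 3 of the 6 were higher in pair means: Pax8 by 0.23, Ptprc by 0.26 and Lyz2 by 0.29, beside the median of 0.23 over all clusters.

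Culture medium was compared within pairs, GM501 against SAGE. No member passed an adjusted p under 0.05 by limma (Benjamini-Hochberg over all 65956 clusters), as deposited or centred, and neither did any other cluster (0% called). At an unadjusted p under 0.05, 535 of 11672 members passed as deposited and 569 after centring. Chance alone gives about 1 in 20 at that level, and neither count exceeded that share. The smallest adjusted p was 1 as deposited and 0.999 centred.

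Among members whose names begin with TC, the 6 with the smallest unadjusted p all had an adjusted p of 1. TC0800000657 was lower by 0.69 ± 0.105 (SE) in the GM501 twin, in 10 of 10 pairs, with an unadjusted p of 2.9e-05 in limma. TC0400000128 was higher in the GM501 twin in 10 of 10 pairs, by 1.40 ± 0.28. The others differed by 0.80 (TC1000001918), -1.09 (TC0700001320), 0.57 (TC0900001691) and 0.62 (TC0800000203) on the log2 scale.

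As deposited, most members that passed the test against the controls were higher in the twins. In the GM501 twins 2014 of 11672 members (17.3%) changed, where 17.1% of all clusters and 16.7% of listed clusters with a mean of at least 5 did. In the SAGE twins 2585 (22.1%) changed, against 24.2% and 21.4%. In the 10 pair means, in which no embryo counts as 2 samples, 3835 members (32.9%) changed, against 41.4% and 32.3%. These 3 comparisons share the 10 controls. Of the changed members, 1799, 2362 and 3513 were higher in the twins, which are 89.3%, 91.4% and 91.6%. The counts depended on the pairs used: pairs 7 to 10 alone gave 140, 79 and 118 members, pairs 1 to 6 alone gave 6767, 6582 and 7155, and without pair 8 GM501 gave 3252. Shares of all clusters are not given for these subsets, so their counts say nothing particular to the members.

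After centring most of the changed members were higher in the twins, while most of the changed listed clusters were lower. In GM501 twins 607 members passed (5.2%), 435 higher and 172 lower, where 3.26% of all clusters and 7.36% of the listed ones passed. In SAGE twins 793 passed (6.79%), 569 higher and 224 lower, against 4.97% and 11.5%. In the pair means 1094 passed (9.37%), 760 higher and 334 lower, against 7.08% and 15.9%. So 71.7%, 71.8% and 69.5% of the changed members were higher in twins. Of the 2850 changed listed clusters in the pair means, 235 were higher and 2615 were lower. The difference between members and listed clusters is a description of their counts. The 2 kinds also differed in level, with a median mean of 6.18 for the members and 7.33 for the listed clusters.

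The median difference tells the same on the log2 scale. The median member differed by 0.27 between pair means and controls as deposited and by 0.03 after centring. The median listed cluster with a mean of at least 5 differed by 0.10 and by -0.15. Members that passed on both scales in the same direction numbered 435 higher and 136 lower for GM501, 569 and 162 for SAGE, and 760 and 247 for the pair means. For the pair means these are 6.51% and 2.12% of the members, beside 2.01% and 3.53% of all clusters and 1.31% and 11.4% of listed clusters with a mean of at least 5. Of unlisted clusters with a mean under 5, 1.08% were higher and 0.0557% lower, so the lean to higher was not particular to the members. Of the members that passed after centring, 291 were higher in pair means by more than 1 and 137 were lower by more than 1.

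**Figure D2:**
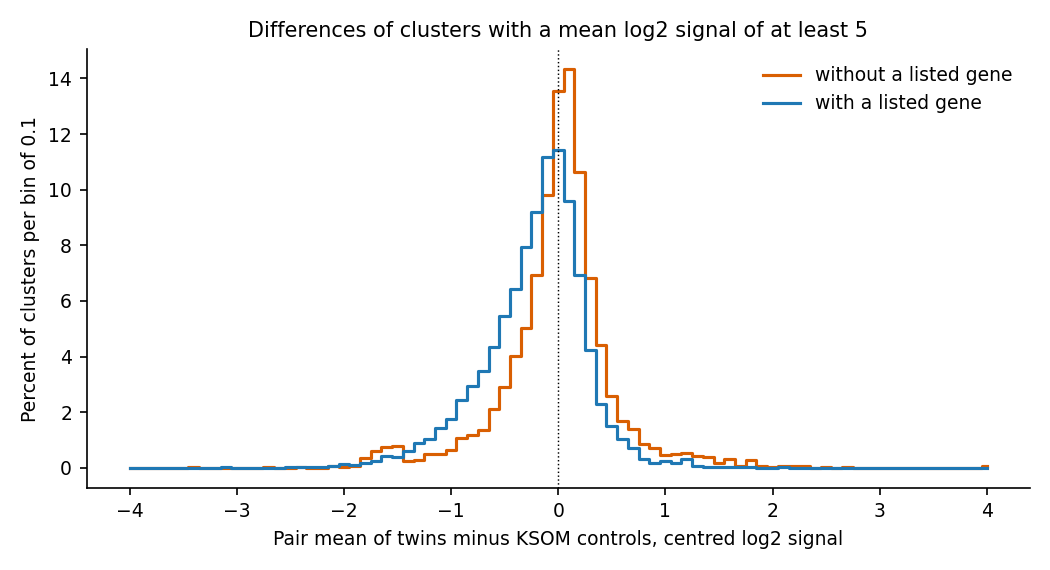
Percent of clusters in each step of the difference between pair means of twins and controls (log2, each array centred on its median), for the members and for listed clusters with a mean of at least 5; the outermost steps also hold values beyond them. The members' median is 0.03 and the listed clusters' is -0.15, and the members' shoulder between -1.9 and -1.3 holds 339 clusters, of which 202 belong to groups of 5 or more identical members and 64 passed the test.

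Many members gave the same values as another member. Equal values in all 30 arrays, to 2 decimals, were shared by 623 members in 128 groups, so that 11672 members had 11177 distinct profiles. The largest group had 63 clusters, 14 groups had 10 or more, and 69 groups spanned more than 1 chromosome code. Members with equal values are counted as 1 measurement wherever they are named below. A further 8 members equalled a listed cluster, among them TC1200000429 and clusters of Rnu6, a spliceosomal RNA, and TC0200000168 and clusters of the Mir466b microRNAs.

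The 5 largest rises by the naming rule in each comparison with controls had 2 profiles, both in the repeated stretch of chromosome 10. TC1000001390 and 3 clusters of equal values, TC1000001409, TC1000001438 and TC1000002968, had log2 signals from 8.49 to 13.86 in GM501 twins (median 12.3), from 8.66 to 14.32 in SAGE twins (median 12.1) and from 4.56 to 9.46 in controls (median 6.12). All twins lay above the highest control except both twins of pair 7 and the SAGE twins of pairs 9 and 10. The difference from controls was 5.32 ± 0.71 (SE) for GM501, with an adjusted p of 0.000367 by limma, and 4.92 ± 0.76 for SAGE, with an adjusted p of 0.00202. In pair means it was 5.12 ± 0.73 as deposited and 4.88 ± 0.70 after centring, with adjusted p of 0.000585 and 0.00111 by limma. Within the twins, pairs 1 to 6 had a mean of 12.88 and pairs 7 to 10 a mean of 9.50. Pairs 7 to 10 alone gave 3.44 for GM501, 2.75 for SAGE and 3.09 for the pair means, with adjusted p of 0.0886, 0.136 and 0.117 by limma, so the calls ended there while the direction held.

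TC1000001391 had the second profile, and TC1000002967, which the rule did not name, had equal values. They ran from 8.64 to 13.82 in GM501 twins (median 12.4), from 8.80 to 14.22 in SAGE twins (median 12.2) and from 3.70 to 8.62 in controls (median 6.18). Every twin lay above every control on both scales. The difference was 5.27 ± 0.74 for GM501 (adjusted p of 0.000572 by limma) and 4.87 ± 0.73 for SAGE (0.00183). The listed cluster with the most similar profile over the 30 arrays was Mt1, a metal-binding metallothionein, with r = 0.878, and for TC1000001390 it was the microRNA Mir669h, with r = 0.832. These correlations describe arrays that differ together by group and set.

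Between Il22 and Ifng, the interferon gamma gene at chr10:118441046-118445894, lay 76 unlisted clusters, of which 59 were members with 26 profiles. Between Rap1b, a small GTPase gene at chr10:117814597-117845974, and Iltifb lay 37, of which 29 were members with 25 profiles. Of these 37, 31 equalled a cluster of the other block, all 31 at the same place when 1 list was read backwards. In the 2 blocks 84 of 88 members shared their profile with another, which leaves 29 profiles. Several profiles recurred inside the Il22 block as well, most often 7 numbers apart.

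In the pair means 22 of these 88 members, with 4 profiles, were higher after centring, and 2 members with 1 profile were lower, among them TC1000001385 by 0.28 (adjusted p of 0.0404 by limma), where 7.08% of all clusters passed. As deposited 31 were higher, where 41.4% of all clusters passed. Members with equal values make these counts larger than the number of measurements behind them. TC1000001398, which occurred 8 times in both blocks, had 13.11 ± 1.76 for GM501, 12.99 ± 1.75 for SAGE and 11.01 ± 0.74 for the controls (SD, n = 10 each), a centred difference in pair means of 1.80 ± 0.52 with an adjusted p of 0.0412 by limma. Pairs 1 to 6 ran from 13.65 to 15.46 and pairs 7 to 10 from 9.80 to 12.64, and these did not overlap, while controls ran from 9.71 to 11.84. TC1000001395, also 8 times, had 8.87 ± 1.20, 8.71 ± 1.05 and 7.20 ± 0.85 and a centred difference of 1.35 ± 0.39 (adjusted p of 0.0439). Other repeated profiles of the same stretch did not pass: TC1000001396 differed by 0.08 (0.93) and TC1000001410 by 0.63 (0.487). Of the listed genes at the ends, Il22 ran from 3.60 to 4.95 over the 30 arrays, Ifng from 3.50 to 4.17, Iltifb from 4.23 to 5.64 and Rap1b from 13.93 to 15.02. In the GM501 and the SAGE comparison, 6 members with 2 profiles passed after centring.

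**Figure D3:**
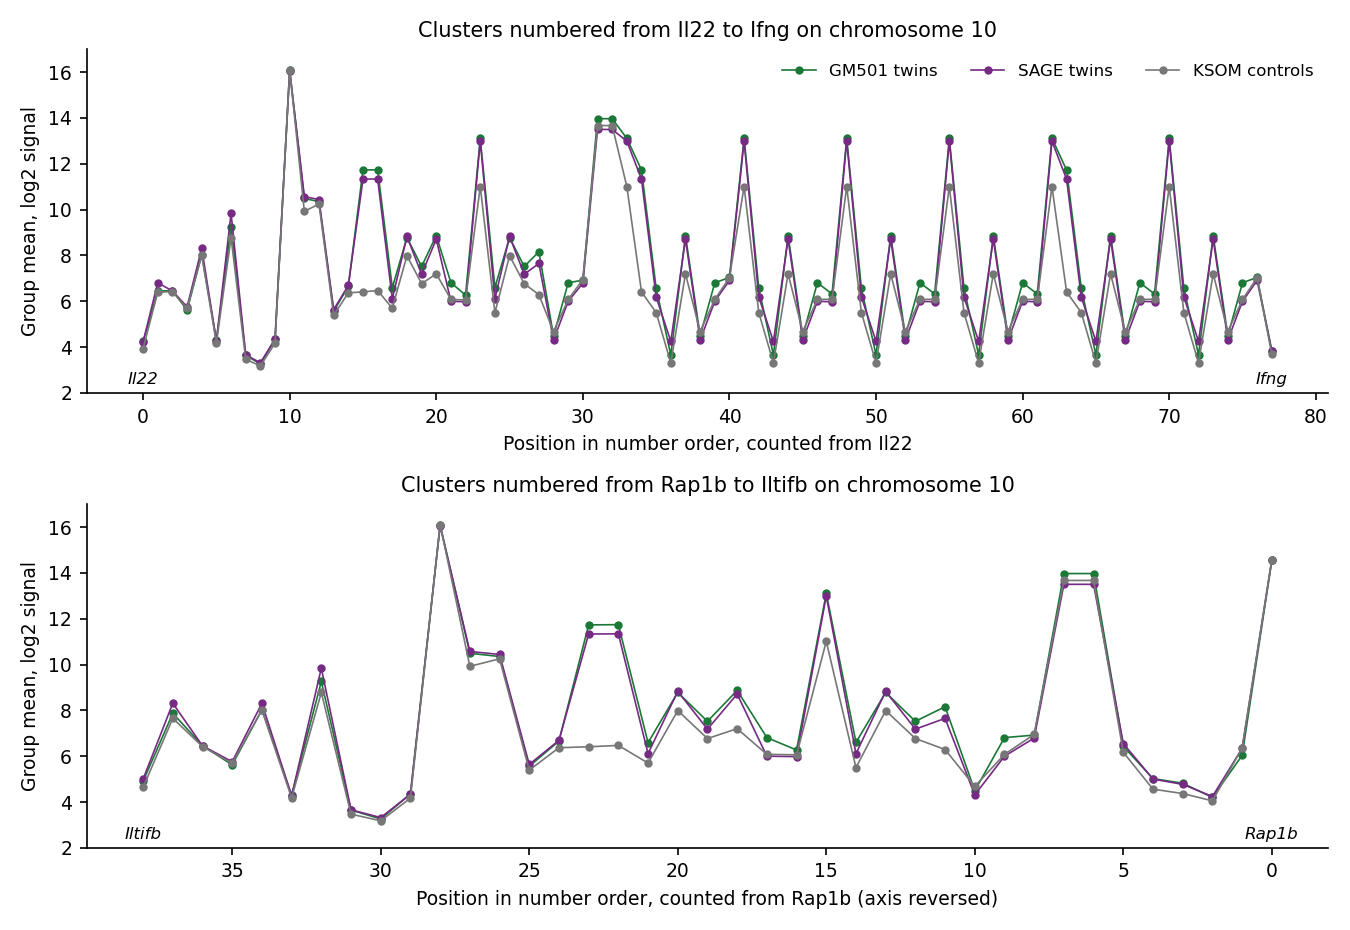
Group means of the log2 signal, as deposited, for the clusters from Il22 to Ifng (top) and from Rap1b to Iltifb (bottom, axis reversed) in number order. The same profiles recur along the upper block and at mirrored places in the lower one, and the pair of clusters with means of 11.73 and 11.74 in GM501 twins and 6.41 and 6.47 in controls shows the widest gap.

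Further members lay higher in all 20 twins than in all 10 controls. This held for 26 members as deposited, of 32 clusters in all (0.0485%), and for 16 members of 15 profiles after centring, of 17 clusters (0.0258%). No member lay lower in all twins than in all controls, where 5 clusters (0.00758%) did as deposited and 4 (0.00606%) centred. The clusters named next were picked from these 16 after their values were seen. TC1900001561, next in number to Scd1, a fatty acid desaturase gene, ran from 7.91 to 12.74 in twins (median 11.5) and from 5.15 to 6.85 in controls (median 5.60), a centred difference in pair means of 4.62 ± 0.51 (adjusted p of 9.06e-05 by limma). Pairs 7 to 10 alone gave 2.81 with an adjusted p of 0.00327 in limma. TC1300000083, next to the prolactin family gene Prl2c5, ran from 9.70 to 13.83 in twins and from 7.64 to 8.88 in controls, a centred difference of 3.29 ± 0.36 (adjusted p of 9.06e-05), and pairs 7 to 10 alone gave 2.05 (0.00301). Both also passed in the smaller set. They were picked because all twins, those of pairs 7 to 10 included, lay above all controls. Passing there is therefore a description and no further test.

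TC1400001899, between Ero1a and Gnpnat1, ran from 9.99 to 13.91 in twins and from 8.50 to 9.82 in controls, a centred difference of 2.65 ± 0.36. TC1500002201, next to the tubulin gene Tuba1a, ran from 11.59 to 13.23 and from 10.23 to 11.05, with 1.35 ± 0.11 and an adjusted p of 6.75e-06 by limma. The gap between the groups in these clusters was narrow beside the spread of the twins.

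Besides the profile of TC1000001391, described above, the remaining members of the 16 had centred differences from 0.81 to 2.12. TC0700003858, between Rhog, a small GTPase gene, and the olfactory receptor gene Olfr543, had a centred difference of 2.12 ± 0.30, with 8.48 to 12.13 in twins and 7.40 to 8.15 in controls. TC1300002224, next to Gm17514 and on the far side of 12 other clusters from Nlrp4f, had 2.12 ± 0.28. TC1200000831, between Zc2hc1c and the immediate early gene Fos, had 1.84 ± 0.29 with 8.33 to 11.69 against 7.28 to 8.25, and TC0600000931, next to Gm21284, had 1.84 ± 0.25. TC0700001963, TC0700000059, TC1100002023, TC0200000942, TC0200000943 and TC0400003204 had differences up to 1.53. In TC0200000943, for one, the twins ran from 10.58 to 12.07 and the controls from 9.96 to 10.49. With pairs 7 to 10 alone, TC0600000931 (adjusted p of 0.0537 by limma), TC0700000059 (0.0641), TC1100002023 (0.103), TC1200000831 (0.071) and the profile of TC1000001391 (0.149) did not pass, and the other 10 profiles did. The twins of pairs 7 to 10 were part of the choice of the 16, so this too is a description.

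The falls by the naming rule were of 5 profiles. TC1000001001 ran from 2.60 to 11.35 in GM501 twins (median 5.03), from 2.87 to 10.36 in SAGE twins (median 6.64) and from 8.70 to 11.74 in controls (median 10.5). Most twins lay below the lowest control, with some inside the controls' range. It fell by 4.21 ± 0.99 for GM501 (adjusted p of 0.0181 by limma), by 3.74 ± 0.81 for SAGE (0.0113) and by 3.98 ± 0.75 in pair means (0.00367), all as deposited. The centred difference in pair means was -4.22 ± 0.80 (0.00557). Its profile was most like that of Rai14, at r = 0.868.

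TC0100003482, between Uck2, a uridine-cytidine kinase gene, and Mgst3, a microsomal glutathione transferase gene, ran from 9.37 to 14.50 in GM501 twins (median 10.9), from 8.51 to 14.27 in SAGE twins (median 9.55) and from 13.68 to 16.50 in controls (median 14.7). The twins of pairs 7 to 10 ran from 12.25 to 14.50 and all but the SAGE twin of pair 8 lay within the controls' range, while pairs 1 to 6 ran from 8.51 to 11.11. It fell by 3.13 for GM501, by 3.82 for SAGE and by 3.47 ± 0.75 in pair means (adjusted p of 0.00745 by limma), and the centred difference in pair means was -3.72 ± 0.81 (0.0128). The most similar listed profile was Ppp1r37, at r = 0.951.

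TC0400001746 and TC0900002348 had equal values on different chromosome codes, from 11.11 to 16.72 in GM501 twins, from 11.42 to 16.62 in SAGE twins and from 15.98 to 18.24 in controls. They fell by 2.90, 3.48 and 3.19 in the 3 comparisons. TC1300001428, between Zmynd11 and Chrm3, fell by 2.98, 3.61 and 3.29. In pair means their centred differences were -3.43 and -3.54 (adjusted p of 0.0131 and 0.0134 by limma). Both profiles were most like Ganab, a subunit of glucosidase II of the endoplasmic reticulum, at r = 0.959 and 0.958. In each the twins of pairs 7 to 10, at 14.38 to 16.72 and at 14.19 to 16.71, lay nearer to the controls than pairs 1 to 6 did, at 11.11 to 13.25 and at 10.81 to 13.24. TC0200003747, between Sp3 and Ola1, was named for GM501 alone, where it fell by 2.98 ± 0.76 (adjusted p of 0.0237 by limma), and its difference in pair means was -2.65 ± 0.70 (0.0143) and, centred, -2.90 ± 0.74 (0.0259). None of these falls passed the test within pairs 7 to 10 alone, where the differences in pair means were -0.82 for TC0100003482, -0.70 for TC0400001746, -0.71 for TC1300001428 and -1.81 for TC1000001001.

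The mitochondrial genome holds genes of the respiratory chain, transcribed from both strands as long precursors that are then cut. Of its 30 clusters 19 were members, and 7 of the 19 passed after centring in pair means, 5 higher and 2 lower. As deposited 11 passed, 10 higher and 1 lower, where 41.4% of all clusters passed. TC0M00000024 ran from 8.88 to 11.47 in GM501 twins (median 10.4), from 9.56 to 11.60 in SAGE twins (median 10.6) and from 8.08 to 9.12 in controls (median 8.42). All twins lay above every control except the GM501 twins of pairs 8 and 9. Its centred difference was 1.64 ± 0.18 (adjusted p of 9.1e-05 by limma), with 1.495 for GM501 and 1.79 for SAGE. TC0M00000023 was higher by 1.41 ± 0.20 (0.00111) and TC0M00000028 by 1.40 ± 0.35 (0.0228). TC0M00000026 and TC0M00000025 were higher by 0.61 and 0.52.

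The member TC0M00000030 went the other way. It ran from 13.34 to 15.07 in GM501 twins (median 14.3), from 12.72 to 15.09 in SAGE twins (median 14.1) and from 14.75 to 15.40 in controls (median 15.0), and after centring it fell by 1.14 ± 0.19 in pair means (adjusted p of 0.00278 by limma). TC0M00000019 fell by 0.44 (0.0177), and as deposited it differed by -0.20 (0.0814). Of the listed mitochondrial genes, ND6, a subunit of respiratory complex I, rose by 0.54 after centring (0.0354), and mt-Rnr1, the small ribosomal RNA, differed by -0.22 (0.194). For embryo of origin 6 of the 19 passed after centring, numbers 1, 3, 10, 12, 14 and 19, where 7.26% of all clusters did. TC0M00000012 ran from 15.14 to 16.33 in pairs 1 to 6 and from 17.52 to 18.25 in pairs 7 to 10, and the controls had a lowest value of 17.06 and a median of 17.48, so the sets of pairs stood apart there too. The 5 members that rose carried running numbers 23 to 28, around ND6 at 27.

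**Figure D4:**
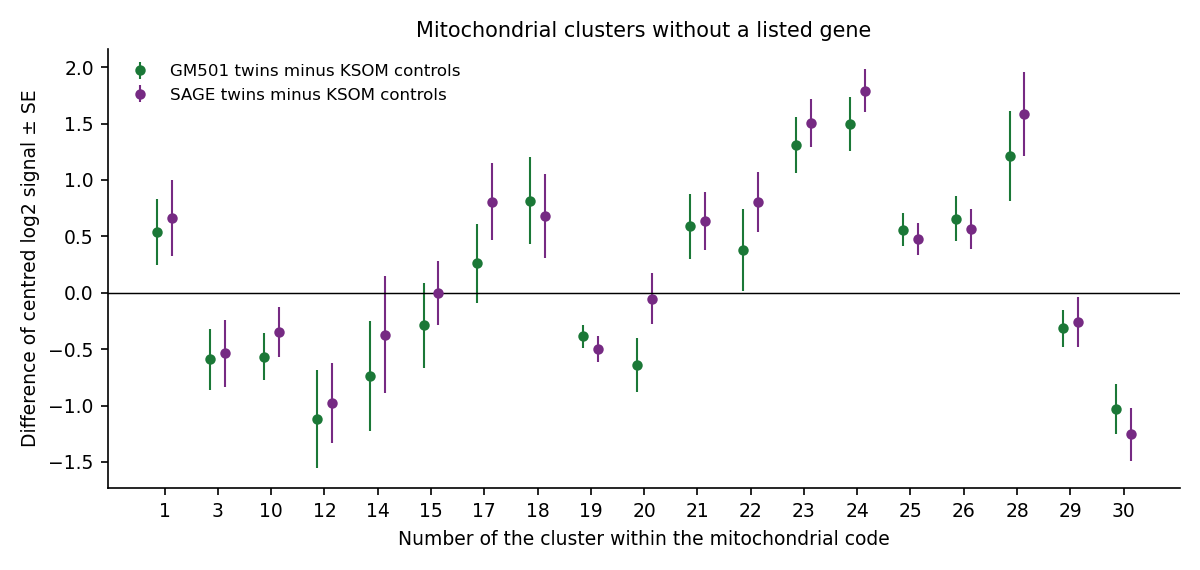
Differences of the centred log2 signal from controls, with SE, for GM501 and SAGE twins in the 19 mitochondrial members, in order of their running number. Number 24 lies highest, at 1.495 and 1.79, and number 30 lies below 0 in both groups of twins.

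Among the chromosomes, the share of members that passed after centring in pair means was 36.8% on the mitochondrial genome, 20.3% among unplaced clusters and from 6.81% (chromosome 12) to 13.5% (chromosome 18) on autosomes, against 7.08% of all clusters. On Y it was 0 of 53.

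Embryo of origin was tested within the twins: whether co-twins of 1 embryo resembled each other more than twins of different embryos did. By limma's F test 2321 members (19.9%) passed as deposited and 1481 (12.7%) after centring, where 12.6% and 7.26% of all clusters passed, and 23.4% and 16.8% of listed clusters with a mean of at least 5. Both scales shared 1243 members. Within pairs 1 to 6 alone 119 members passed as deposited, and within pairs 7 to 10 alone 104 did, with 0 in common. These fits also rest on fewer embryos, and the part of the sets in the drop was not tested. The 119 and 104 are 1.02% and 0.891% of the members, where 0.367% and 0.182% of all clusters passed. They had only 54 and 27 distinct profiles, so clusters of equal values enlarge both counts. After centring 151 and 95 members passed, with 55 and 19 distinct profiles, where 0.44% and 0.161% of all clusters passed.

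The members made up 49.2% of all clusters that passed within pairs 1 to 6 and 86.7% of those within pairs 7 to 10. Most of the latter were repeated clusters that moved with Cwc22, a splicing factor gene at chr2:77881159-77946356. Of the 27 groups of 5 or more identical members, 5 had a correlation with Cwc22 of at least 0.8 over the 30 arrays, from 0.818 to 0.901, and the next had 0.787. These 5 groups hold 139 clusters on 21 chromosome codes. They made up 76 of the 104 members that passed within pairs 7 to 10, and 63 of the 119 within pairs 1 to 6. All 5 passed the test for embryo of origin after centring, and 0 passed in a comparison with controls. The groups were chosen in these same arrays for moving with Cwc22, whose own level differed between embryos. Both outcomes follow from that choice and are a description, not a test.

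The group of 18 clusters led by TC0100001325 ran from 15.00 to 15.99 in the 4 twins of pairs 7 and 8 and from 7.64 to 10.42 in the other twins. Controls 2, 4, 6, 7 and 8 lay from 13.05 to 15.02 and the other controls from 8.02 to 10.86, so high and low embryos stood apart in both kinds of embryo. Cwc22 itself was highest in the same twins and controls, and its correlation with this group was 0.899 over all arrays and 0.869 over the 20 twins. The adjusted p for embryo of origin was 1.8e-05 after centring by limma. The group of 63 led by TC0100000118 ran from 10.98 to 12.17 in pairs 7 and 8 and from 5.84 to 9.60 in the other twins. The group of 35 led by TC0100001122 ran from 12.47 to 13.83 and from 6.43 to 9.24. In each group both co-twins of an embryo were high or both were low.

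**Figure D5:**
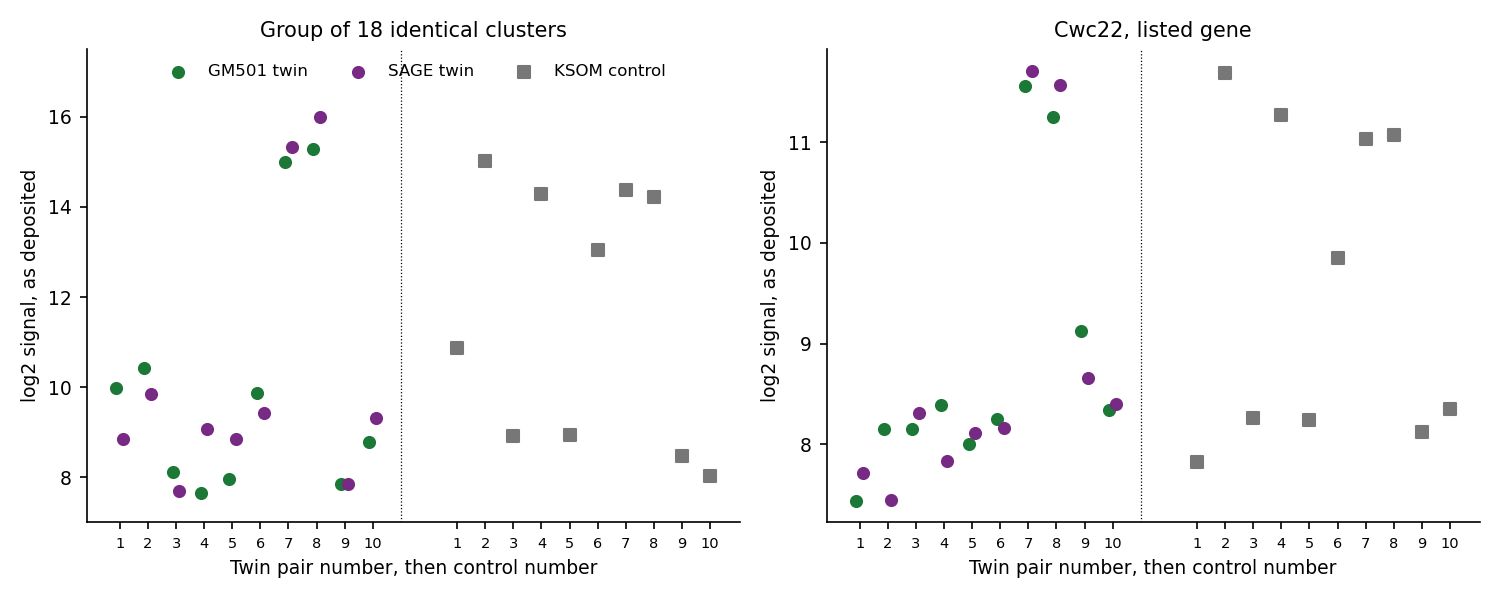
Log2 signal, as deposited, of the 18 identical clusters led by TC0100001325 (left) and of Cwc22 (right), by twin pair number and then by control number, with 1 point per array. In the left panel the twins of pairs 7 and 8 lie at the top, up to 15.99, and the other twins from 7.64 to 10.42.

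The other members named for embryo of origin divided the sets or lay on Y. TC0900001133, between Zfp949 and Trim43a, ran from 10.09 to 11.03 in pairs 1 to 6, from 12.80 to 13.68 in pairs 7 to 10 and from 11.74 to 12.77 in controls, with an adjusted p of 1.5e-05 after centring by limma. TC1700002099, next to the noncoding gene AY036118, ran from 7.24 to 8.01, from 9.45 to 10.02 and from 8.90 to 9.41. In both, as deposited, the controls lay between the sets without overlap. After centring the SAGE twin of pair 8, at 7.90 and 4.33, fell within the controls' range. Within either set alone neither cluster passed the test for embryo of origin. The order of pairs 7 to 10 over controls over pairs 1 to 6 occurred in 6 members of 8 clusters in all (0.0121%) as deposited and in 3 of 3 (0.00455%) after centring. The opposite order occurred in 1 member of 7 clusters (0.0106%) and in 0 of 0 (0%).

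More widely, 167 members (1.43%) were higher in all twins of pairs 7 to 10 than in all of pairs 1 to 6 as deposited, where 1.06% of all clusters were. After centring 307 members (2.63%) were, where 1.4% of all clusters were. In the opposite direction they were 472 (4.04%, beside 2.69% of all clusters) and 206 (1.76%, beside 0.656%). Of listed clusters with a mean of at least 5, 2.95% and 3.18% were higher in pairs 7 to 10, and 5.27% and 1.2% in pairs 1 to 6. Among the controls, 59 members (0.505%, beside 0.387% of all clusters) were higher in all of numbers 1 to 6 than in all of 7 to 10. The other way there were 36 (0.308%, beside 0.332%). After centring these were 65 (0.557%, beside 0.423%) and 38 (0.326%, beside 0.406%).

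Xist, the RNA that silences 1 X chromosome in female cells, was at 15.12 or more in 17 arrays and at 7.91 or less in 13. In 5 pairs both twins were high, in 5 both were low, and 0 pairs were split. Of the 53 Y members, 41 were higher on average in the arrays with low Xist, and the arrays did not overlap in 2. Shares over all clusters are not given for these counts, which are a description. After centring 31 of 53 passed the test for embryo of origin, where 7.26% of all clusters did. The correlation with Eif2s3y, a Y gene of translation initiation, had a median of 0.639 and reached 0.889 in TC0Y00000235, whose means were 8.31 in the arrays with low Xist and 4.44 in the others. TC0Y00000153 and TC0Y00000209, which the naming rule picked, moved instead with the Y gene Gm20736, at r = 0.999 and 0.998 over the 20 twins. TC0Y00000153 ran from 8.14 to 9.77 in the twins of pairs 3, 4 and 6, from 5.06 to 7.59 in the other twins and from 4.85 to 7.09 in controls. Both clusters passed within pairs 1 to 6 alone and not within pairs 7 to 10 alone.

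A second stretch with repeated profiles lay on chromosome 2. Sfmbt2, a Polycomb gene expressed from the paternal copy, spans chr2:10370440-10595253, and an intron of it holds the Mir466, Mir467 and Mir669 microRNAs. Of the 119 clusters from the Sfmbt2 cluster to Mir669h, 46 were members with 37 profiles. As deposited 8 of the 46 were higher for GM501, 13 for SAGE and 18 for the pair means, where 17.1%, 24.2% and 41.4% of all clusters passed, and none was lower. None passed for medium or for GM501 after centring, and 6 members with 5 profiles were higher in SAGE twins and in pair means, where 4.97% and 7.08% of all clusters passed. In pair means TC0200000191 was higher by 1.12 (adjusted p of 0.0157 by limma), TC0200000189 by 1.02 (0.0498), TC0200000186 by 0.95 (0.0307), TC0200000140 and its equal TC0200000158 by 0.84 (0.0408) and TC0200000095 by 0.66 (0.0391).

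The 8 members with the highest means were TC0800002549, TC0200002613, TC0200000731, TC1100001295, TC1700001553, TC1400000823, TC0100002078 and TC0700003630, with means from 18.79 to 19.14, near the highest value in the table, 19.3. This order follows the mean that chose the members and is a description.

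As a listed counterpart, 21 of 40 fixed long noncoding RNA genes had a cluster of their own. After centring, 0 were higher and 3 were lower in pair means, where 15.9% of listed clusters with a mean of at least 5 passed and most of those were lower. Tug1 fell by 0.95 (adjusted p of 0.00545 by limma), Norad, which binds Pumilio proteins, by 0.93 (0.0109) and Neat1, the scaffold of paraspeckles, by 0.87 (0.0323). As deposited 3 were higher and 4 lower. Their median difference after centring was -0.26, beside -0.15 for listed clusters with a mean of at least 5, -0.02 for all clusters and 0.03 for the members.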

How the data were processed

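Single blastocysts were profiled on 30 whole-transcriptome arrays, 10 per group, amplified with a WT Pico kit per the labels. The authors deposited 1 table of log2 signals per cluster, with 2 decimals; Expression Console, RMA and mm10 are named in the submitters' processing notes, with no version. Values ran from 2.2 to 19.3, which fits a base of 2; no source states it. The number of arrays limits the precision, and depth has no meaning here.

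Fits over all 65956 clusters used limma 3.58.1 (R 4.3.3). P-values were two-sided and adjusted by Benjamini-Hochberg over all clusters, with calls at an adjusted p under 0.05. GM501 and SAGE twins were compared with pair as a block, since co-twins come from 1 embryo per the labels. Twins and their 10 pair means were compared with controls without a block. Whole arrays correlated at r from 0.928 to 0.985 over all clusters. Co-twins were therefore compared over the members by centred values relative to each cluster's own mean. These correlated with a median r of 0.369 (from 0.195 to 0.636), beside -0.067 with twins of other pairs. In 7 of 10 pairs the correlation was best with the own co-twin. Within pairs 1 to 6 the median r was 0.147, and within pairs 7 to 10 it was 0.368. The fit was tested on simulated data. Alternatives were centring, quantile normalization, array weights, a variance trend, level filters, single arrays, no block and subsets of pairs.

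The members and gene lists were chosen with earlier results of these data known. Named were the 8 members of highest mean, the 6 of smallest p for medium, up to 5 rises and 5 falls per comparison with controls (called on both scales, with 8 or more of 10 arrays beyond the controls' median) and the 8 of smallest p for embryo. All but those of highest mean were picked among members whose names begin with TC. Cluster names are printed without their suffix. Of all clusters, 30604 had 1 listed symbol and 2146 several, and the rest of the table's clusters are unnamed here, not without a gene.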

Additional observations from a re-analysis of the deposited data

Results flagged for a closer look

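Among the 26 profiles of the named clusters, tested in 3 groups of 10 arrays (78 in all), 4 had 1 array far from the other 9 by Dixon's criterion, where chance alone gives about 1 in 20. TC0200003747, which fell in GM501 twins, had its lowest control, number 8, at 4.94, and the next control at 8.13. TC0800000657 had its highest control, also number 8, at 5.90, and the next at 4.93. TC0700001320 had its highest control, number 6, at 8.00, and the next at 6.60. TC0800000203 had its lowest SAGE twin, that of pair 9, at 6.02, and the next at 7.09. The last 3 clusters were named for the medium, where none passed the adjustment.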

How the results depend on the processing

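Counts are of members that passed, in the order GM501, SAGE and pair means against controls, then embryo of origin. They describe how the counts shift and stand here without shares over all clusters. The deposited values gave 2014, 2585, 3835 and 2321. Centring gave 607, 793, 1094 and 1481, quantile normalization 677, 836 and 1176 for the first 3, and array weights 3474, 5088, 5788 and 4444. Members with a mean of at least 6 (6361 clusters) gave 1217, 1445 and 1952. Pairs 7 to 10 alone gave 140, 79, 118 and 104, and pairs 1 to 6 alone 6767, 6582, 7155 and 119. Without pair 8 GM501 gave 3252 and embryo 4315. Alternatives chosen after seeing the data combined centring with these subsets: 137, 63, 56 and 95 for pairs 7 to 10, 3560 for GM501 and 151 for embryo in pairs 1 to 6, and 885, 761 and 1152 for the first 3 without pair 8. The other alternatives stayed within 1.5 times. The cause of these shifts was not tested, beyond the smaller number of samples or clusters that some of them hold.

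For the medium 0 members passed under any alternative. Without the replicate block the count was also 0, with 255 members at an unadjusted p under 0.05, beside 535 with the block, and the block changed no call. Of 30 results on named clusters, 23 lost the threshold with pairs 7 to 10 alone and 3 with pairs 1 to 6 alone. No direction reversed under any alternative run.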

Other observations

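Members moved little with the genes beside them. Over the 30 arrays, after centring, the correlation between a member and the nearest listed cluster in number with a mean of at least 5 had a median of 0.068 (11593 members), and it reached 0.8 in 1.32%. Between neighbouring listed clusters the median was 0.212 and 4.82% reached 0.8. The arrays share sets and groups, and the values are a description.

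The members also varied more among twins than among controls, and so did listed clusters with a mean of at least 5. The median SD of a member over 10 arrays, after centring, was 0.532 for GM501, 0.541 for SAGE and 0.322 for the controls. For the listed clusters it was 0.503, 0.525 and 0.268. The SDs of twins span both sets of pairs. In the members co-twins differed by a median of 0.36, twins of other pairs by 0.48 and controls by 0.30. In the listed clusters these were 0.32, 0.46 and 0.25. The differences between twins of other pairs also span both sets. Within pairs 1 to 6 the members differed by 0.36 between co-twins and by 0.40 between twins of other pairs. Within pairs 7 to 10 these were 0.37 and 0.42.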
